A study of Macaca fascicularis and Macaca mulatta and Papio anubis with 20 samples.

Results

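Insulin-like growth factor binding proteins are secreted proteins that bind the growth factors IGF1 and IGF2 and so set how much of each can reach its receptor. They act outside the cell: IGF1R and INSR carry the signal, IGF2R clears IGF2, and secreted proteases such as PAPPA, PAPPA2 and HTRA1 cut some binding proteins and release the bound growth factor. In a dorsal root ganglion, where the cell bodies of sensory neurons lie, each neuron is wrapped by satellite glia, axons are wrapped by Schwann cells, and connective tissue with fibroblasts surrounds both. The genes described are IGFBP2, IGFBP3, IGFBP4, IGFBP5, IGFBP6 and IGFBP7, chosen by symbol. All 6 were found among the 22000 features of the Macaca fascicularis sections, as ENSMFAG00000040045, ENSMFAG00000048572, ENSMFAG00000043180, ENSMFAG00000040116, ENSMFAG00000000085 and ENSMFAG00000032578 in that order. All 6 were also found among the 20842 features of the sections labelled Macaca mulatta and the 21369 features of those labelled Papio anubis.

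The study measured polyA RNA in 20 sections of fresh frozen ganglia, bought from a primate supplier and with no treatment given, with Visium, which captures RNA on a grid of barcoded spots and counts unique molecular identifiers (UMIs) per gene and spot. One spot covers tissue of more than 1 cell, often of unlike types. The 16 Macaca fascicularis sections came as 4 sections for each of 4 title codes, 1 for each combination of female or male with batch 1 or 2, and each code was treated as 1 specimen, which the labels neither state nor contradict. Another code supplied 2 sections labelled Macaca mulatta and a further one 2 sections labelled Papio anubis, all in batch 2 with no sex given. Sections were 10 µm thick and cut 100 µm apart, at least 2 from each ganglion, and the ages of the animals were not given. The Macaca fascicularis sections held 1136433 to 7073134 UMIs, with a median of 398 to 5145 UMIs per tissue spot. The sections labelled Macaca mulatta were shallow, with 190376 and 264661 UMIs and medians of 61 to 62 per spot. The sections labelled Papio anubis held 595020 and 12595205 UMIs.

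Markers of the labelled tissue were present: 12 measured genes of the neuron list, among them the neurofilament gene NEFL, summed to a mean of 22279 to 30792 CPM (UMIs scaled to the same total in each section) in the 4 Macaca fascicularis specimens. Sections of a specimen were not independent animals, so the tests of batch, sex and marker-high spots compared specimens, and with 2 specimens a batch and 2 a sex the spread rested on few samples. Levels of different binding proteins are not set against each other.

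IGFBP5 was lower in both specimens of batch 2 than in both of batch 1. IGFBP5 binds both growth factors and also attaches to the extracellular matrix. Its level was 54.0, 11.2, 18.2 and 17.6 CPM in sections 1 to 4 of the batch 1 female. The batch 1 male had 19.1, 22.3, 15.3 and 12.7 CPM. In batch 2 it was 6.97, 1.25, 2.17 and 4.30 CPM in the female and 0.621, 5.78, 4.44 and 2.64 CPM in the male. Every section of batch 2 thus lay below every section of batch 1, an arrangement that 5.22% of the 13273 genes with at least 20 UMIs shared. Summed per specimen and adjusted for sex, IGFBP5 was 5.12-fold lower in batch 2, a log2 difference of -2.36 (SE 0.35, adjusted p = 0.016, quasi-likelihood test of edgeR, Benjamini-Hochberg). It was the only 1 of the 6 genes to pass, against 2.88% of the 12650 genes tested that passed (1.61% lower and 1.26% higher in batch 2). Over the alternatives run, its adjusted p ran from 1.085e-07 to 0.06534.

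The fall of IGFBP5 had limits. It rested on 68 and 25 UMIs in the batch 2 specimens against 327 and 324 in batch 1, and when the batch 2 male's section 1 was left out the adjusted p was 0.0586 with a difference of -2.08. Fibroblast markers moved with batch too: of 9 tested, 6 were lower in batch 2, with a median log2 difference of -4.62. The collagen gene COL1A1 fell from 177 CPM in the female of batch 1 to 1.38 CPM in the female of batch 2 and from 126 to 4.82 CPM in the males, while GSN, another listed marker, stood at 830 and 787 CPM in the females and 671 and 1047 CPM in the males of batches 1 and 2. Within spots high for fibroblast markers alone, IGFBP5 differed by -1.90 (adjusted p = 0.0653), where 1.3% of 8705 genes passed. Fewer fibroblasts in a section and less RNA per fibroblast cannot be told apart here, and their part in the result was not tested. The version of the counting software, Space Ranger, also went with batch, and its part was not tested.

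The other 5 binding proteins did not pass between batches. IGFBP6, a binding protein that prefers IGF2 over IGF1, was 965, 434, 648 and 849 CPM in the female of batch 1 and 488, 878, 879 and 522 CPM in the male. In batch 2 it was 901, 196, 230 and 444 CPM in the female and 91.6, 531, 686 and 155 CPM in the male. The batches overlapped, the lowest sections being 1 and 4 of the male of batch 2, and the difference was -0.69 (adjusted p = 0.187). IGFBP3, the main carrier of IGF1 in blood, was scarce, with 12, 10, 79 and 12 UMIs in the female and male of batch 1 and the female and male of batch 2. The female of batch 2 was highest at 4.31 ± 2.12 CPM (SD, n = 4 sections). Its lowest section, at 2.54 CPM on 13 UMIs, was close to section 1 of the batch 2 male, at 2.48 CPM on 8 UMIs. The batch difference of IGFBP3 was 2.16 (adjusted p = 0.113, edgeR's quasi-likelihood test).

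IGFBP2, IGFBP4 and IGFBP7 varied less. IGFBP2, the binding protein most studied in the developing nervous system, averaged 72.0 ± 12.5 CPM in the male of batch 1, 62.6 ± 14.1 in the female of batch 2, 62.3 ± 17.8 in the female of batch 1 and 34.2 ± 11.3 in the male of batch 2 (SD, n = 4 sections each). Neighbours in that order overlapped. The highest section of the batch 2 male, at 50.9 CPM, was close to the lowest of the batch 1 male (53.5 CPM) and of the batch 2 female (54.3 CPM). IGFBP4, which PAPPA cleaves, ran from 198 ± 22.4 CPM in the male of batch 1 and 198 ± 55.2 in the female of batch 2 to 239 ± 51.0 in the female of batch 1 and 325 ± 132 in the male of batch 2, and neighbours overlapped. IGFBP7, which binds the growth factors only weakly and lies in vessel walls and matrix, ran from 473 ± 76.6 to 592 ± 123 CPM, and the ranges of all 4 specimens overlapped. Batch differences were -0.52 for IGFBP2, 0.34 for IGFBP4 and 0.20 for IGFBP7 (adjusted p = 0.391, 0.523 and 0.697).

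**Figure D1:**
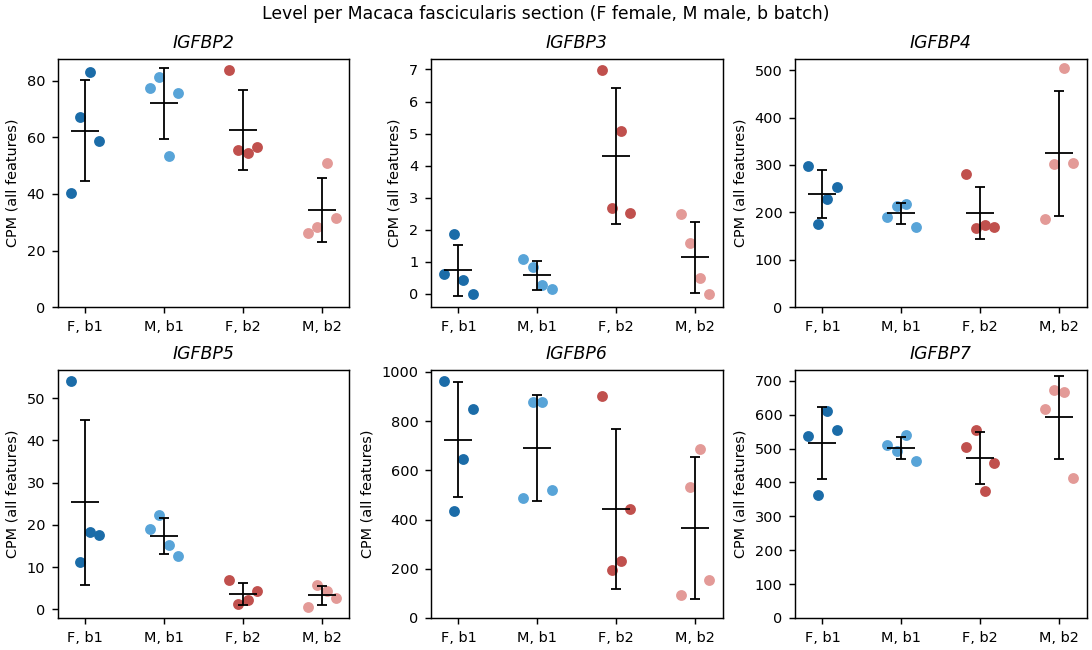
Each panel plots 1 binding protein's level in CPM over all features for the 4 sections of each Macaca fascicularis specimen (F female, M male, b batch); points are sections, long bars the mean and error bars the SD. IGFBP5 sections of batch 2 all lie at or below 6.97 CPM and those of batch 1 at or above 11.2 CPM, while the other 5 panels overlap between batches.

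No binding protein passed the test between females and males. The log2 differences, female minus male, were IGFBP3 1.14, IGFBP2 0.47, IGFBP5 0.30, IGFBP6 0.22, IGFBP4 -0.14 and IGFBP7 -0.06 (adjusted p = 0.998 for each, edgeR's quasi-likelihood test). The share of genes called was 0% of 12650 by edgeR, 169 genes had an unadjusted p under 0.05, and the alternatives called 0 to 67 genes. With 1 female and 1 male a batch, this comparison had little power, and differences of the size measured for IGFBP3 could not be separated from the spread.

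To ask which compartment each binding protein marks, spots under tissue with at least 200 UMIs were ranked in each section by the share of their UMIs in a list of cell type markers, and the top 25% were set against the rest. This gave 4648 high and 13946 other spots for each list from 15 sections; the binding proteins are in no list. Spots high for the fibroblast list had a list share of 0.947% of UMIs against 0.126% elsewhere. The list is led by GSN with 39.1% and the matrix gene DCN with 26.2% of its UMIs, shares that pool both batches. In whole sections of batch 2 the list averaged 1171 CPM in the female and 1342 CPM in the male. GSN, at the levels given above, made up most of that, so the ranking in batch 2 rested mostly on GSN. PDGFRA, a receptor gene often used to mark fibroblasts, had 6 UMIs in the 16 Macaca fascicularis sections.

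All 6 binding proteins were higher in fibroblast-high spots, in all 4 specimens. IGFBP6 was 3641 CPM in fibroblast-high spots and 415 CPM in other spots of the female of batch 1. It was 3902 against 383 CPM in the male of batch 1, 4217 against 231 CPM in the female of batch 2 and 833 against 148 CPM in the male of batch 2. The high spots of every specimen thus lay above the other spots of all 4, and the rise was 9.75-fold, a log2 difference of 3.29 (SE 0.26, adjusted p = 2.73e-07, edgeR's quasi-likelihood test with specimen as a block). It was higher in 15 of 15 sections.

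IGFBP5 was 10.9-fold higher (log2 difference 3.44, SE 0.23, adjusted p = 4.34e-08). Its fibroblast-high and other spots stood at 113 and 11.7 CPM in the female of batch 1 and at 92.7 and 9.97 CPM in the male. In batch 2 they stood at 39.6 and 1.77 CPM in the female and at 11.8 and 1.29 CPM in the male, the last pair from 9 and 7 UMIs. The fibroblast-high spots of the male of batch 2 were thus level with the other spots of the batch 1 specimens.

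IGFBP4 was 774, 653, 1456 and 493 CPM in fibroblast-high spots of the female and male of batch 1 and the female and male of batch 2, against 180, 153, 130 and 206 CPM elsewhere. The rise was 4.68-fold (log2 2.23, SE 0.28, adjusted p = 2.6e-05), and the male of batch 2 had the smallest gap. IGFBP3 was 2.34, 3.78, 23.3 and 5.23 CPM against 0.592, 0.227, 3.15 and 1.29 CPM in the same order, a log2 difference of 2.80 (SE 0.44, adjusted p = 0.000203), on 3 to 20 UMIs in the high spots of a specimen. IGFBP7 was 1167, 1120, 1660 and 934 CPM against 472, 438, 419 and 546 CPM, a 2.55-fold rise (log2 1.35, SE 0.20, adjusted p = 0.000141). Both groups of spots kept apart for IGFBP7. IGFBP2 was 114, 137, 192 and 31.4 CPM against 65.4, 67.3, 56.0 and 27.5 CPM, a 2.05-fold rise (log2 1.04, SE 0.20, adjusted p = 0.00101); in the male of batch 2 the high spots were below the other spots of the remaining specimens.

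The 6 calls compare with 19.7% of 11095 genes tested that were higher in fibroblast-high spots, 17.2% that were lower and 36.9% that passed either way; the median log2 difference was 2.51 over the 6 genes and 0.02 over all genes tested. Fibroblast-high spots were shallower, with a median over sections of 698 UMIs per spot against 2192.5 elsewhere. Ranked within 5 strata of depth, all 6 still passed, with log2 differences of 1.84 for IGFBP6, 1.64 for IGFBP5, 1.51 for IGFBP3, 1.22 for IGFBP4, 0.81 for IGFBP7 and 0.74 for IGFBP2. Of the fibroblast-high spots, 48.9% were also high for smooth muscle and pericyte markers, 42.3% for myelinating Schwann markers and 6.33% for neuron markers. Without specimen as a block, 4 of the 6 passed; IGFBP3 and IGFBP2 did not (adjusted p = 0.122 and 0.148).

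**Figure D2:**
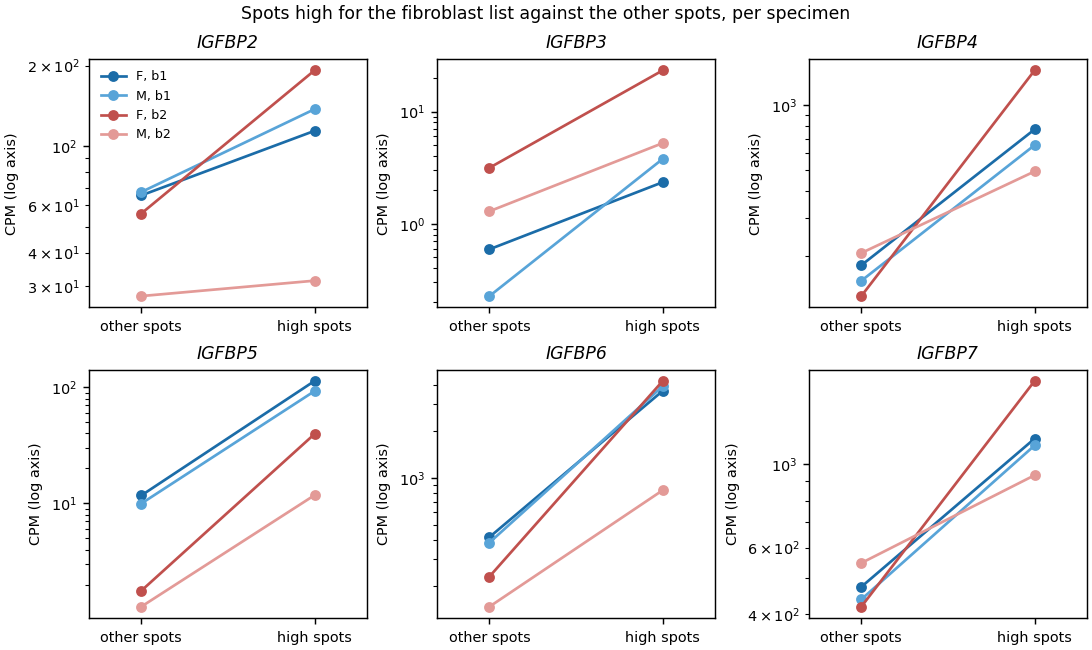
Each panel plots 1 binding protein's CPM (log axis) in the spots high for the fibroblast list and in the other spots, with 1 line per Macaca fascicularis specimen (F female, M male, b batch). All 24 lines rise; for IGFBP6 they run from 148 to 415 CPM in other spots up to 833 to 4217 CPM in high spots.

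Spots rich in neuron markers showed the reverse. In neuron-high spots, chosen in the same way, 5 of the 6 binding proteins were lower, against 22.1% of 12119 genes tested that were lower there, 20.1% that were higher and 42.2% called either way. IGFBP6 was 355 CPM in neuron-high and 889 CPM in other spots of the female of batch 1, 326 against 946 CPM in the male, 157 against 700 CPM in the female of batch 2 and 152 against 266 CPM in the male. It was lower in neuron-high spots of all 4 specimens, by 1.43 on the log2 scale (-1.43, SE 0.13, adjusted p = 8.05e-07). IGFBP5 was 9.12, 6.96, 0.797 and 1.10 CPM in neuron-high spots of the same 4 specimens against 27.1, 24.5, 6.52 and 3.21 CPM elsewhere (-1.74, SE 0.17, adjusted p = 1.27e-06).

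IGFBP4 (-0.75, SE 0.14, adjusted p = 0.00062) and IGFBP7 (-0.54, SE 0.07, adjusted p = 2.16e-05) also fell in neuron-high spots. IGFBP3 differed by -1.16 (SE 0.42, adjusted p = 0.0346), but without the female of batch 2, which held most of its UMIs, the difference was 0.11. IGFBP2 alone did not pass: it was 65.0, 70.8, 52.2 and 19.2 CPM in neuron-high spots against 72.2, 74.97, 73.4 and 31.6 CPM elsewhere (-0.20, SE 0.09, adjusted p = 0.0974). Neuron-high spots were deeper, with a median of 4682 UMIs against 1224. Ranked within depth strata, IGFBP6, IGFBP5, IGFBP4 and IGFBP7 still passed, at -0.83, -0.97, -0.38 and -0.40, and IGFBP3 was not tested. Without specimen as a block no binding protein passed, the lowest adjusted p being 0.0896 for IGFBP7.

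The binding proteins were also followed by distance from neurons. From the 10% of spots with the highest neuron share over themselves and their grid neighbours (1859 spots), the mean IGFBP6 level over 4 specimens rose from 289 ± 120 CPM at those spots through 327 ± 136 at 1 step and 354 ± 167 at 2 steps to 683 ± 312 CPM at 3 or more steps (SD, n = 4). IGFBP5 went from 4.86 ± 4.90 through 6.37 ± 5.69 and 7.62 ± 8.31 to 15.2 ± 12.1 CPM. For both, most of the increase lay beyond the 2-step ring, and the spreads over specimens overlapped. IGFBP4 ran from 172 to 246 CPM and IGFBP7 from 423 to 574 CPM, while IGFBP2 stayed between 55.1 and 60.1 CPM at every distance.

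At 3 or more steps, 5 of the 6 binding proteins were above their level at 0 steps in 4 of 4 specimens and IGFBP2 in 3 of 4, where 29.1% of 10461 genes with at least 100 UMIs were above in all 4. With the neuron share of a spot alone in place of its neighbourhood, IGFBP2 was above in 4 of 4 and IGFBP3 in 3 of 4. The fibroblast list's share rose along the same steps from 0.123% to 0.223% of UMIs, and its part in these levels was not tested. These distances are described with no test.

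IGFBP2, IGFBP7 and IGFBP4 were higher in spots rich in satellite glia markers. Spots high for satellite glia markers, a list in which the lipid carrier APOE holds 69.8% of the UMIs, had IGFBP2 at 99.8 CPM against 59.0 CPM elsewhere in the female of batch 1 and 109 against 63.3 CPM in the male. In batch 2 it was 93.8 against 54.8 CPM in the female and 32.0 against 26.9 CPM in the male. For IGFBP2 the high spots were above in all 4 specimens and in 14 of 15 sections, by 0.76 on the log2 scale (SE 0.07, adjusted p = 1.84e-13). IGFBP7 (0.48, adjusted p = 8.22e-13) and IGFBP4 (0.32, adjusted p = 7.35e-07) were higher too, making 3 of 6, where 10.5% of 11224 genes tested were higher, 7.79% lower and 18.3% passed either way.

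IGFBP6, IGFBP5 and IGFBP3 did not pass in satellite glia-high spots (0.09, -0.38 and 0.45; adjusted p = 0.319, 0.0791 and 0.451). With satellite glia-high spots kept only where that list stood highest of the 9, IGFBP2 kept a difference of 0.73 and IGFBP7 of 0.36, IGFBP4 was at 0.02 and no longer passed, and IGFBP6 was lower by 0.44 (-0.44). With APOE left out of the list, IGFBP6 (1.17), IGFBP5 (1.35), IGFBP4 (0.89), IGFBP7 (0.66) and IGFBP2 (0.53) were all higher. The median depth was 1701 UMIs in satellite glia-high and 1263 in other spots. Without specimen as a block none passed (adjusted p = 0.999 for the 5 tested).

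Among the remaining lists, smooth muscle and pericyte markers, led by MYL9 and TAGLN, gave the pattern nearest to that of fibroblast markers. All 6 binding proteins were higher, IGFBP5 by 2.91, IGFBP6 by 2.64, IGFBP3 by 2.14, IGFBP4 by 1.87, IGFBP7 by 1.09 and IGFBP2 by 0.94 on the log2 scale (adjusted p = 2.06e-05 to 0.00532), where 13.8% of 10879 genes were higher, 9.27% lower and 23.1% passed either way. Without the female of batch 2 only 3 of the 6 passed, IGFBP3 not being tested. MYH11, the defining contractile gene of smooth muscle, had 16 UMIs in all, and 48.9% of these spots were the fibroblast-high ones.

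Perineurial markers, the genes of the sheath around nerve bundles, were led by ITGB4. In spots high for them IGFBP6 (1.77), IGFBP5 (1.75), IGFBP4 (1.21) and IGFBP7 (0.63) were higher (adjusted p = 0.0277 to 0.046), where 2.8% of 11057 genes were higher, 0.208% lower and 3.01% passed either way. However, without the female of batch 1, the male of batch 1 or the female of batch 2 in turn, 0 of the 6 passed. IGFBP2 was at 0.64 (adjusted p = 0.0514).

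In spots high for endothelial markers, led by EGFL7, the rises were smaller. IGFBP3 (1.08), IGFBP5 (1.01), IGFBP4 (0.67), IGFBP6 (0.60) and IGFBP7 (0.44) passed (adjusted p = 0.000932 to 0.0486) where 3.72% of 11346 genes were higher, 1.51% lower and 5.23% passed either way. IGFBP2 was at 0.30 (adjusted p = 0.0532). DESeq2 called 1 of the 6, and 2 passed without the female and 1 without the male of batch 1.

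Spots high for immune markers, led by the complement gene C1QC, had higher IGFBP4 (1.00), IGFBP6 (0.99), IGFBP7 (0.76) and IGFBP2 (0.70), where 10.9% of 11082 genes were higher, 7.53% lower and 18.4% passed either way. Without the female of batch 1 only 1 passed, and without the male of batch 1 only 2. In spots high for myelinating Schwann markers, led by PMP22, IGFBP5 (2.25), IGFBP6 (1.47), IGFBP4 (1.03) and IGFBP7 (0.57) were higher, where 18.1% of 11040 genes were higher, 17% lower and 35.1% passed either way. These spots were shallow, at a median of 584 against 2190.5 UMIs, and within depth strata IGFBP6 was at -0.15 and IGFBP4 at -0.0057, neither passing, while IGFBP5 (0.55) and IGFBP7 (0.17) still did. A list meant for adipocytes drew 98.6% of its UMIs from LPL, with 41 UMIs of ADIPOQ, so it is called LPL-led. IGFBP5 (1.46), IGFBP3 (1.26) and IGFBP7 (0.48) were higher in its spots, where 12.8% of 11023 genes were higher, 9.63% lower and 22.5% passed either way. Leaving out any 1 specimen but the batch 2 male left IGFBP3 without a call, and it was tested in only 3 of the 4 fits that left out 1 specimen. Within depth strata IGFBP5 was at -0.0033, and IGFBP6, at 0.44 with all spots ranked together (adjusted p = 0.156), was lower (-0.38, adjusted p = 3.5e-05).

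Across the 9 lists, IGFBP7 was higher in the high spots of all 8 non-neuronal lists, and IGFBP4 in those of 7, all but the LPL-led list. Specimen as a block mattered for these calls: without it no binding protein passed for the perineurial, endothelial, smooth muscle, immune and LPL-led lists, and 1, IGFBP4 (adjusted p = 0.0131), passed for the Schwann list. The lists overlap in their spots, so these calls are not separate evidence.

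**Figure D3:**
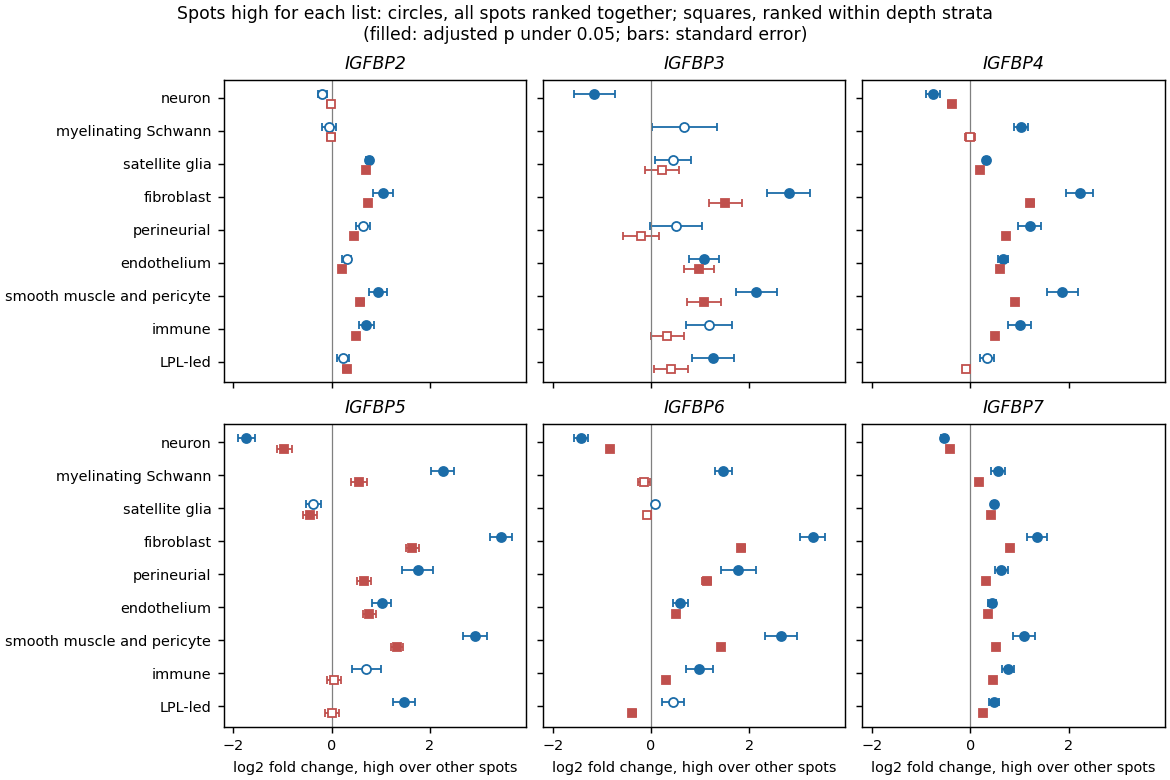
Each panel plots 1 binding protein's log2 fold change between spots high for each of 9 marker lists and the other spots (circles), and the same with spots ranked within depth strata (squares); bars are standard errors and filled symbols have an adjusted p under 0.05. Circles lie left of 0 for the neuron list in all 6 panels, and the fibroblast list gives the highest circle in all 6.

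Folds between high and other spots were set against batch with an interaction term in 9 lists. With 2 specimens a batch, these tests rest on a spread shared across genes. They were smaller in batch 2 for IGFBP2, IGFBP4, IGFBP5, IGFBP6 and IGFBP7 with the endothelial list, by -0.44, -0.69, -1.41, -1.13 and -0.47 on the log2 scale, where 6% of genes differed. They were smaller for IGFBP5 (-1.42) and IGFBP6 (-1.55) with the perineurial list, where 9.22% of genes differed, and for IGFBP4 (-0.81) and IGFBP6 (-1.55) with the LPL-led list, where 6.37% differed. No binding protein's fold differed by batch for the fibroblast, neuron, satellite glia, Schwann, smooth muscle or immune list, and none by sex for any list, at an adjusted p under 0.05. Few genes of any kind differed in those tests: by batch 0% for the fibroblast, smooth muscle and immune lists, 0.0165% for neuron, 0.125% for satellite glia and 0.779% for Schwann, and by sex 0.033% for neuron, 0.0356% for satellite glia, 0.0181% for Schwann, 0.00902% for immune and 0% for the other lists. For fibroblast-high spots the IGFBP5 fold was larger in batch 2 by 1.09 with an adjusted p of 0.795.

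The growth factors, receptors and proteases that the binding proteins work with were read in the same fits. Of 20 genes of the IGF axis, 10 were tested in fibroblast-high spots, and 5 of these were higher and 1 lower, where 19.7% of all genes tested were higher and 17.2% lower. IGF2, the ligand that IGFBP6 prefers, was 59.4, 59.9, 232 and 17.0 CPM in fibroblast-high spots of the female and male of batch 1 and the female and male of batch 2, against 9.99, 9.06, 19.9 and 2.21 CPM elsewhere. The high spots were above in all 4 specimens, by 2.99 on the log2 scale (SE 0.20, adjusted p = 6.07e-08). The transcription factor FOXO1, which insulin and IGF signals restrain, was higher by 3.00, the insulin receptor INSR by 2.23, the signalling subunit PIK3R1 by 0.83 and the clearance receptor IGF2R by 0.77. The protease HTRA1 was lower there (-0.47, adjusted p = 0.0219).

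IGF1 was near the limit of detection, with 31, 14, 4 and 0 UMIs in the spots of the 4 specimens, and the receptor IGF1R did not pass in fibroblast-high spots (0.41, adjusted p = 0.287). In neuron-high spots 14 genes of the axis were tested, 2 were higher and 4 lower, counts near the 20.1% of all genes that were higher and the 22.1% that were lower there. HTRA1 was 910, 791, 831 and 629 CPM there against 393, 366, 325 and 360 CPM elsewhere, higher in all 4 specimens without overlap (1.20, SE 0.08, adjusted p = 1.73e-08). PAPPA2, which cuts IGFBP3 and IGFBP5, was 12.6, 16.7, 7.37 and 11.5 CPM against 4.59, 4.83, 4.16 and 3.66 CPM (1.53, SE 0.17, adjusted p = 5.27e-06). IGF2 (-1.87), FOXO1 (-1.98), INSR (-1.08) and GRB10 (-0.57) fell in neuron-high spots. In satellite glia-high spots PAPPA2 (-1.06) and HTRA1 (-0.24) were lower and none of the 10 tested was higher, where 7.79% of all genes were lower and 10.5% higher. Between batches 0 of 14 passed, and between sexes 0 of 14.

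The related CCN proteins share a binding protein-like domain with this family. CCN1 (2.26) and CCN3 (1.88) were the 2 tested in fibroblast-high spots, and both were higher, as were 19.7% of all genes. In neuron-high spots CCN1 (-0.83) and CCN3 (-1.04) fell, and CCN5 (1.58), on few UMIs, was higher, where 22.1% of all genes were lower and 20.1% higher.

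Clustering in space was read from the authors' deposited table of Moran's I, a statistic near 0 when neighbouring spots are unrelated and higher when like levels sit together. In the authors' deposited table IGFBP6 had a median I of 0.323 over 16 Macaca fascicularis sections, from 0.0186 to 0.499, and an adjusted p under 0.05 in 15 of 16. Its rank among all genes of a section was 1 at best and 19.5 at the median. By specimen, in the authors' deposited table, the mean was 0.438 ± 0.0653 in the male and 0.324 ± 0.104 in the female of batch 1, 0.2502 ± 0.157 in the female and 0.136 ± 0.134 in the male of batch 2 (SD, n = 4 sections). The lowest values, 0.0186 and 0.0356, were those of sections 4 and 1 of the male of batch 2, the 2 sections in which its level was lowest there.

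In the same deposited table of the authors, IGFBP4 had a median I of 0.0857 (0.00546 to 0.275) and passed in 13 of 16 sections. IGFBP7 had 0.062 (-0.00215 to 0.175) and passed in 15 of 16. IGFBP2, at 0.0166 (-0.00339 to 0.18), passed in 7 and IGFBP5, at 0.0178 (-0.0031 to 0.075), in 6 of 16, while IGFBP3 passed in 1 of 14. Over genes and sections together, 57 of 94 values of the 6 genes passed, against 16.2% of 220436 values of all genes, and 24 also had an I of at least 0.1, against 2.71%. A gene with few UMIs gives a low I whatever its layout. The ranks and the shares over all genes were not matched for abundance. They therefore cannot show whether the 6 genes cluster more than genes of like abundance. In the deeper section labelled Papio anubis, the authors' deposited table gave 0.404 for IGFBP6 (rank 7) and 0.395 for IGFBP5 (rank 10). In the shallower section of that label the authors' deposited table gave 0.0771 for IGFBP6 and 0.0159 for IGFBP5, the latter with an adjusted p of 0.141. In both sections labelled Macaca mulatta IGFBP6 passed in the authors' deposited table, at 0.0678 and 0.0556, and IGFBP5, at 0.0189 and 0.00693, did not.

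**Figure D4:**
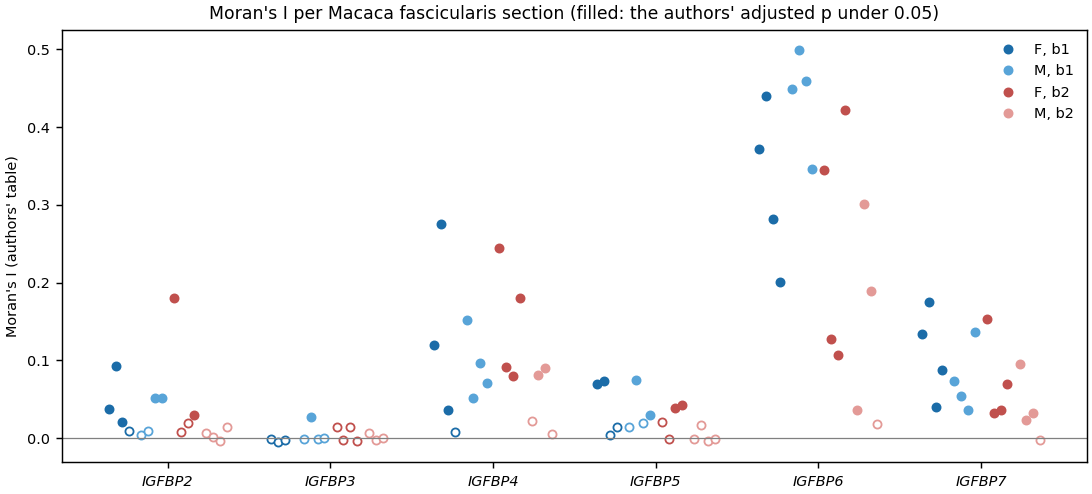
Moran's I from the authors' deposited table for each binding protein (y axis, no unit) in each Macaca fascicularis section, coloured by specimen (F female, M male, b batch); filled points have the authors' adjusted p under 0.05. IGFBP6 reaches 0.499 in the male of batch 1 and falls to 0.0186 in the male of batch 2, and IGFBP3 stays at or below 0.0273.

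The genes whose levels followed each binding protein most closely over spots were found within each of 15 sections by Pearson correlation of log-normalised values, as a description; the points share a section and its depth. For IGFBP6 the closest were the matrix gene DCN (median r 0.397, positive in 15 of 15 sections), SFRP4 (0.380), PTGDS (0.361), TAGLN (0.315) and GSN (0.299). For IGFBP4 the closest was IGFBP6 itself (0.255), then DCN (0.219), TIMP1 (0.210), TAGLN (0.209) and MGP (0.209). IGFBP4 and IGFBP6 were the closest of the 15 pairs of binding proteins.

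IGFBP7 was closest to TAGLN (0.167), TXNIP (0.161), MGP (0.154), SERPING1 (0.154) and TIMP1 (0.151). IGFBP2 alone had a satellite glia gene first, APOE (0.122), followed by VAMP1 (0.108), ALDOC (0.104), NME1 (0.102) and CHCHD10 (0.1001). IGFBP5 was closest to PTGDS (0.129), IGFBP6 (0.119), AEBP1 (0.0954), DCN (0.0939) and SFRP4 (0.0863). For IGFBP3 the closest was TIMP1, at 0.0474 over 13 sections. The part of sparse counts in the values of IGFBP5 and IGFBP3 was not tested.

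Levels by labelled species were compared as CPM over 13089 genes measured under the same symbol in all 3 feature sets. With 1 specimen for each of the other labels there is no test; a difference is listed where it was at least 4-fold, after adding 1 CPM, with no overlap of sections, among genes reaching 10 CPM in at least 1 of the sections compared. The feature identifiers of the sections labelled Macaca mulatta are those of Papio anubis and the reverse, so the labels and the identifiers disagree about which species is which, and these sections are named by their labels throughout. A match of a read to 1 species' gene model can also differ between species, and its part in these levels was not tested.

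IGFBP4 was lower in both other labels. Over the 16 Macaca fascicularis sections its lowest, median and highest levels were 263, 330 and 793 CPM, against 10.3 and 44.4 CPM in the sections labelled Macaca mulatta (1 and 6 UMIs) and 58.1 and 16.8 CPM in those labelled Papio anubis (19 and 114 UMIs). No section overlapped; mean levels were 13.2-fold and 9.76-fold lower, where 35.4% of 8982 and 10.9% of 8550 genes were listed as lower. On pooled UMIs, Macaca fascicularis was 11.3 times (95% interval 5.49 to 28.2) and 18.3 times (15.4 to 21.9) above the other labels. The exact intervals cover counting error only. The 2 sections labelled Papio anubis held 326992 and 6804903 UMIs of the shared genes, so pooled values of that label rest mostly on the deeper section.

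IGFBP5 was higher in both other labels: 0.954, 14.3 and 81.3 CPM (lowest, median, highest) in Macaca fascicularis against 237 and 96.1 CPM in the sections labelled Macaca mulatta and 434 and 301 CPM in those labelled Papio anubis. Mean levels were 8.35-fold and 18.4-fold higher with no overlap, where 10.1% and 8.39% of genes were listed as higher. Both other labels were in batch 2 only, while the Macaca fascicularis mean pooled both batches, between which IGFBP5 differed. The Macaca fascicularis sections of batch 2 ran from 0.954 to 11.5 CPM, and no fold was computed against these alone. On pooled UMIs, mostly from the deeper section, the sections labelled Papio anubis were 16.7 times higher (15.3 to 18.1). IGFBP6 was 141, 821 and 1482 CPM against 2430 and 5034 CPM in the sections labelled Macaca mulatta, 4.31-fold higher, and against 1315 and 595 CPM in those labelled Papio anubis, within the Macaca fascicularis range.

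The sections labelled Macaca mulatta also held more fibroblast marker RNA, at a mean of 9762 CPM for the list over all features against 1171 to 2966 CPM in the Macaca fascicularis specimens, and less neuron marker RNA, at 10872 CPM. The part of these levels in IGFBP5 and IGFBP6 was not tested. IGFBP3 was 4.10-fold higher in the sections labelled Papio anubis, at 12.2 and 16.3 CPM against 0, 1.47 and 11.5 CPM, and overlapped in those labelled Macaca mulatta, at 10.3 and 22.2 CPM on 1 and 3 UMIs. IGFBP2 reached 229 and 263 CPM in the sections labelled Papio anubis, against 40.1 to 138 CPM in Macaca fascicularis. That was 2.71-fold, below the 4-fold needed for listing. IGFBP7 reached 1544 and 2114 CPM in those labelled Macaca mulatta, against 556 to 1056 CPM, which was 2.25-fold and not listed either. No share over all genes was computed for folds of this size. Scaled over all features instead, IGFBP4 in both labels and IGFBP5 in the sections labelled Papio anubis were still listed. In those labelled Macaca mulatta, IGFBP5 (6.41-fold, sections overlapping) and IGFBP6 (3.42-fold) were no longer listed. Nor was IGFBP3 in those labelled Papio anubis (3.26-fold, sections overlapping).

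**Figure D5:**
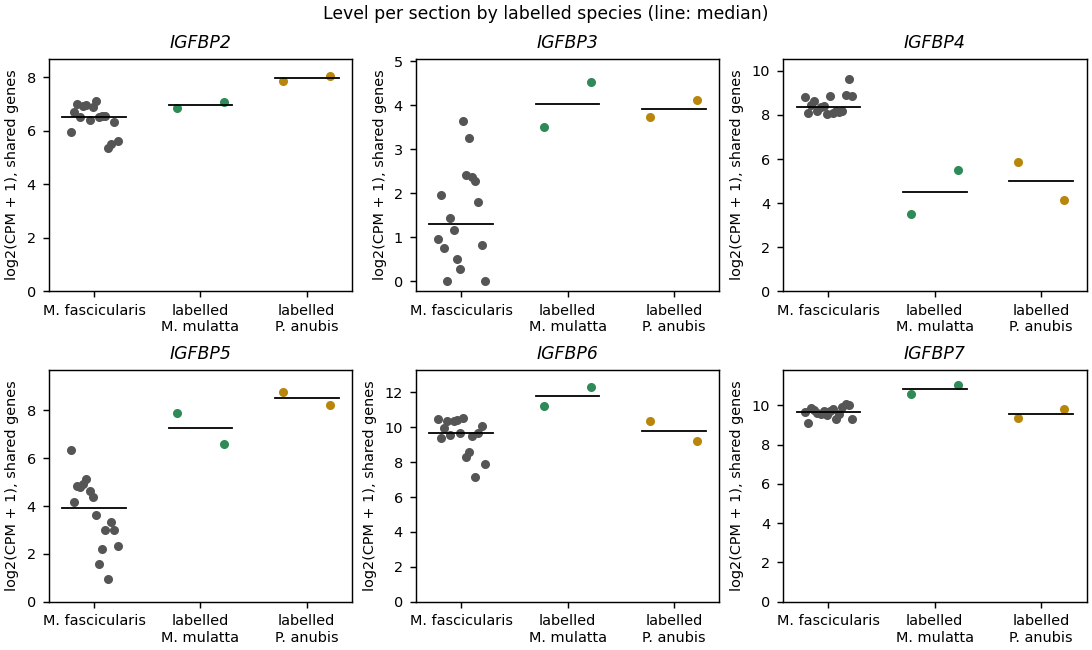
Each panel plots 1 binding protein's level as log2(CPM + 1) over genes shared by the 3 feature sets, 1 point per section for 16 Macaca fascicularis sections and 2 sections of each other label, with lines at the medians. IGFBP4 points of both other labels lie below all Macaca fascicularis points, and IGFBP5 points lie above them.

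Within the sections labelled Papio anubis, fibroblast-high spots held 1877 CPM of IGFBP5 against 67.1 CPM elsewhere, 3007 against 177 CPM of IGFBP6, 1343 against 426 CPM of IGFBP7 and 49.0 against 7.07 CPM of IGFBP4. These values pool both sections of that label and rest mostly on the deeper one. In those labelled Macaca mulatta, where 320 spots passed 200 UMIs, IGFBP6 stood at 5872 against 1443 CPM, 4.07 times higher on pooled UMIs (95% interval 3.16 to 5.24, counting error only). For the genes named here the direction was that of the Macaca fascicularis specimens, with 1 specimen a label and no test. The remaining binding proteins are not given for these labels, so these values do not show the direction of the family as a whole there.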

How the data were processed

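Raw UMI counts were used as the authors deposited them. Per the file headers Space Ranger was at version 2.0.0 for 12 sections and 2.1.0 for 7; the version goes with batch among Macaca fascicularis sections. The submitters' processing notes name Mmul_10, while feature identifiers follow 3 species. Moran's I is a score, with its adjusted p-value, as the authors deposited it per section; how it was computed is not given in the sources used here. For 1 section, male batch 2 section 3, no counts per spot were used here. It enters only the section totals, taken from the authors' deposited table, and the values of Moran's I. Replicate sections differed beyond sampling noise: chi-square over its degrees of freedom was at least 3.93 in 26 pairs.

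Counts were summed per specimen and tested with edgeR 4.0.16 (TMM, filterByExpr, glmQLFit, glmQLFTest, Benjamini-Hochberg over all genes tested, R 4.3.3), with sex and batch as terms for whole sections and specimen as a block for spots; DESeq2 1.42.0 and limma 3.58.1 were alternatives. The procedure was tested on simulated data. The batch test within fibroblast-high spots and the lists without their most abundant gene were alternatives added after seeing the data. A call means an adjusted p under 0.05. Ties in a list's share were broken at random with a fixed seed; the perineurial, endothelial and smooth muscle lists each left 1 of 15 sections with fewer than 25% of spots holding a UMI of the list. The members and lists were chosen with earlier results of these data known. Named genes were the 6 members, genes of the IGF axis and CCN lists, and for each member the 5 genes of highest median within-section correlation. Coordinates and sequences were not used here.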

Additional observations from a re-analysis of the deposited data

Results flagged for a closer look

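In 46 groups of 4 sections tested, 6 had 1 section far from the other 3, where chance flags about 1 in 20 groups. Section 1 of the female of batch 2 stood high for IGFBP2, at 83.7 CPM and with a Moran's I of 0.18 in the authors' deposited table, and for IGFBP4 at 281 CPM. Section 1 of the female of batch 1 stood high for IGFBP5 at 54.0 CPM. In the authors' deposited table Moran's I stood high for IGFBP3 in section 2 of the male of batch 1, at 0.0273, and for IGFBP5 in section 2 of the male of batch 2, at 0.0166.

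Of 108 tests of whether a fold between high and other spots differed between batches or sexes, 9 passed at an adjusted p under 0.05 and 28 at an unadjusted p under 0.05 (edgeR's quasi-likelihood test). All 9 were smaller folds in batch 2. With the endothelial list the differences were -0.44 for IGFBP2, -0.69 for IGFBP4, -1.41 for IGFBP5, -1.13 for IGFBP6 and -0.47 for IGFBP7. With the perineurial list they were -1.42 for IGFBP5 and -1.55 for IGFBP6, and with the LPL-led list -0.81 for IGFBP4 and -1.55 for IGFBP6. The endothelial and perineurial lists each left 1 of 15 sections short of spots with a UMI of the list, and the part of depth or Space Ranger version in these differences was not tested.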

How the results depend on the processing

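Of 960 values of single members under alternatives, 801 kept direction and side of the threshold, 85 lost and 50 gained a call and 24 changed sign. The count of members called between batches was 1, and became 2 with no filter on counts, 2 with sections as samples and section number as a replicate block, 0 in fibroblast-high spots alone and 0 to 1 leaving out sections. Section numbers gave no clear pairing: same-numbered deviations correlated at a median of 0.017 (-0.112 to 0.456), with 9 of 24 over 0.1. Differently numbered ones had a median of -0.0082 (-0.555 to 0.559), with 14 of 72 over 0.1. Over all genes the batch count was 364 and ran from 113 to 4448. Fibroblast-high counts of 4097 genes ran from 740 to 5323, neuron-high counts of 5118 from 171 to 5870, satellite glia counts of 2053 from 0 to 3512, Schwann counts of 3873 from 743 to 4660, perineurial counts of 333 from 0 to 3478, endothelial counts of 593 from 2 to 2752, smooth muscle counts of 2513 from 0 to 4901, immune counts of 2044 from 0 to 3490 and LPL-led counts of 2478 from 0 to 3963. Without specimen as a block 0 members passed for the neuron, satellite glia, perineurial, endothelial, smooth muscle, immune and LPL-led lists and 1 for the Schwann list. Leaving out specimens gave 0 to 5 for the perineurial, 1 to 6 for the endothelial, 3 to 6 for the smooth muscle, 1 to 5 for the immune and 2 to 5 for the LPL-led list. Within depth strata 2 passed for the Schwann list; without APOE 5 passed for satellite glia. DESeq2 called 1 for the endothelial and 2 for the immune list. The neighbourhood score and exclusive classes each gave 1 for the immune and 1 for the LPL-led list, for which sections as samples gave 6, the top 10% of spots 5 and a minimum of 1000 UMIs 5. With a Moran's I of at least 0.1, 24 values passed, and with CPM over all features 3 differences by label were listed.

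Signs changed as follows; the cause was not tested. Leaving out 1 section each, the sex difference ran from -0.14 to 0.012 for IGFBP7, from -0.063 to 0.50 for IGFBP6 and from -0.31 to 0.034 for IGFBP4. Leaving out 1 specimen each, IGFBP3 ran from -1.54 to 0.11 in neuron-high and IGFBP6 from -0.014 to 0.18 in satellite glia-high spots, in both cases crossing 0 without the female of batch 2. For satellite glia IGFBP6 was -0.0029 with sections as samples, -0.19 by neighbourhood, -0.0875 within depth strata and -0.44 in exclusive classes, and IGFBP5 was 1.35 without APOE. For the Schwann list IGFBP2 was 0.21 by neighbourhood and 0.11 above 1000 UMIs, and within depth strata IGFBP6 was -0.15 and IGFBP4 -0.0057. For the perineurial list IGFBP3 was -0.21 within depth strata and -1.39 in exclusive classes. For the LPL-led list, within depth strata IGFBP6 was -0.38, IGFBP5 -0.0033 and IGFBP4 -0.0812; in exclusive classes IGFBP6 was -0.13, IGFBP2 -0.23 and IGFBP4 -0.12; by neighbourhood IGFBP2 was -0.0052. Few UMIs limit IGFBP3 and, in batch 2, IGFBP5.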
